A study of Mus musculus with 4 samples.

Results

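Mast cells of chemically induced mouse colon tumours are described here from droplet single-cell RNA sequencing. A barcode was taken as a mast cell member when it passed the depth filter and held at least 2 unique molecular identifiers (UMIs) of Cpa3, at least 1 UMI over Kit, Mcpt1, Mcpt2, Cma1 and Mcpt4 together, and 0 UMIs of Mcpt8 and Epcam. The depth filter asked for at least 500 UMIs, at least 200 genes and at most 20% mitochondrial UMIs. By this rule 71 of 14198 passing barcodes were members, a share of 0.500% (exact 95% binomial interval 0.391 to 0.630%, covering counting error only). They held 282231 UMIs in all, with a median of 2818 and a range of 582 to 15532 UMIs per barcode.

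The 4 samples were sorted cells of colon polyps from female C57BL/6 mice. They were CD45+ cells of EgfrΔMYL mice, CD45- cells of EgfrΔMYL mice, CD45+ cells of Egfr fl/fl mice and CD45- cells of Egfr fl/fl mice, with 1 sample in each group. EgfrΔMYL mice lack Egfr in the myeloid lineage, while Egfr fl/fl mice carry the floxed gene and served as controls. The Cre driver, and how many animals were pooled into a sample, are not given in the sources used here. All mice had received 12.5 mg/kg azoxymethane (AOM), a colon carcinogen. Dextran sulphate sodium (DSS), which injures the colon lining, followed in 3 cycles, 2.5% in the first cycles and 2% in the last, and tissue was taken 30 days after the last one.

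The deposited matrix joins 4 libraries that are told apart by the number at the end of each barcode, and nothing in the sources used here pairs a number with a genotype or a sort. No genotype or sort was therefore compared, no p-value was computed, and each library is given by its number. Libraries 1 to 4 held 594, 1706, 4516 and 7382 passing barcodes with median depths of 4507, 3390.5, 4932.5 and 5177 UMIs. Across libraries, 24 barcode sequences occurred more than once, and 0 of them belonged to members. Libraries 3 and 4 held 23 and 46 members, while libraries 1 and 2 held 1 each. As shares of passing barcodes these counts were 0.168% in library 1, 0.0586% in library 2, 0.509% in library 3 and 0.623% in library 4, so nearly all statements below rest on libraries 3 and 4.

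Mast cells are granulated immune cells that settle in tissues and depend on KIT, the receptor for stem cell factor. Their granules store proteases, histamine and, in rodents, serotonin on a matrix of heparin-like proteoglycan, and crosslinking of IgE bound to the receptor FcεRI releases them. In mice, mucosal mast cells of the gut are known for the chymases MCPT1 and MCPT2, while connective tissue mast cells are known for MCPT4, CMA1 (also called MCPT5) and tryptases.

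The members divided into 2 sets with a wide gap between them, seen after the data were examined. In 63 members, Kit, Mcpt1, Mcpt2, Cma1 and Mcpt4 together made up 2.37 to 44.1% of the UMIs of the barcode (median 18.2%); these are called protease-rich. In the other 8 members the same genes made up 0.00773 to 0.0831%, and any limit in the gap gives the same division. Of the 63 protease-rich members, 60 held UMIs of Fcer1a or Ms4a2, the α and β chains of FcεRI, which the rule did not read, 578 UMIs in all. All 8 protease-poor members held 0 UMIs of both genes. They were deeper, with a median of 8032.5 UMIs against 2477 UMIs in protease-rich members, and they held 2 to 4 Cpa3 UMIs.

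**Figure D1:**
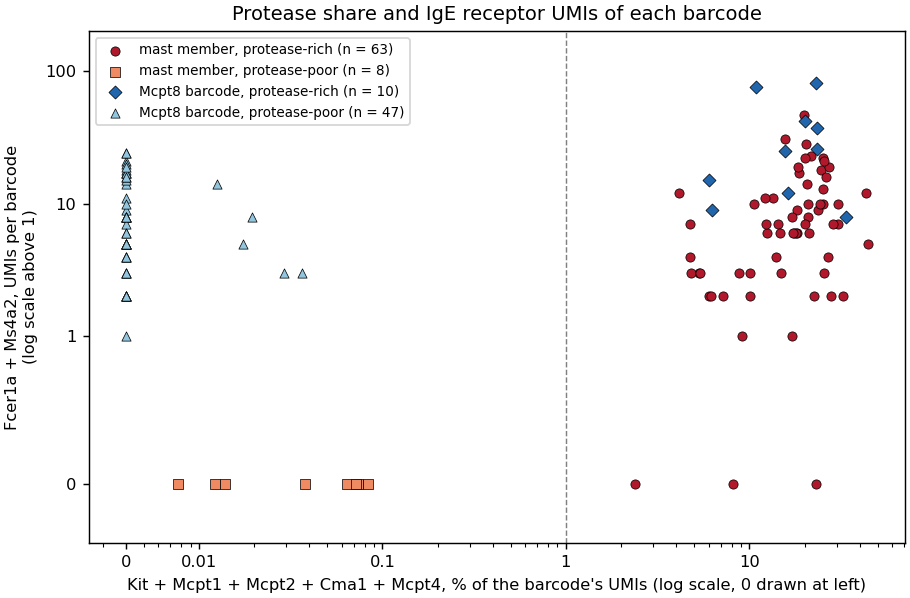
Each point is a barcode; the horizontal axis gives Kit, Mcpt1, Mcpt2, Cma1 and Mcpt4 as a percentage of its UMIs (log scale) and the vertical axis its Fcer1a and Ms4a2 UMIs (log scale above 1). The 63 protease-rich members lie right of the dashed line at 1%, mostly with receptor UMIs, and the 8 protease-poor members lie left of it at 0 receptor UMIs, while 47 of the 57 Mcpt8 barcodes have receptor UMIs with hardly any protease.

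RNA of other cell types stood out in the 8 protease-poor members. Of them, 6 met a marker rule for another class, 4 that for neutrophils (at least 2 Csf3r UMIs), 2 that for macrophages (at least 5 C1q UMIs) and 1 that for T cells (at least 2 Cd3 UMIs), against 0 of the 63 protease-rich members. They held 766 of the 871 S100a8 UMIs of all members (a calprotectin subunit of neutrophils), 140 of the 145 C1qa UMIs (complement) and 231 of the 243 H2-Ab1 UMIs (MHC class II). The protease-rich members were not free of such RNA, since 1 of them, in library 4, held 95 of their 105 S100a8 UMIs. A single protease-poor barcode held all 22 Csf2 UMIs and all 17 Gata3 UMIs of the members, and another held all 18 Cd3d UMIs (a T cell receptor chain partner). Receptor UMIs alone do not tell mast cells from basophils, since all 57 barcodes with at least 2 UMIs of the basophil protease gene Mcpt8 held them. Tpsb2, a mast cell tryptase gene that the rule did not read, was seen in 58 of 63 protease-rich members. It was seen in 0 of the 47 Mcpt8 barcodes with under 1% of UMIs in the 5 genes above. Both sets were chosen by their share of related proteases, so this contrast is no independent support for the label. The 10 other Mcpt8 barcodes held 0 to 292 Tpsb2 UMIs, with 4 of them at 0. Receptor and tryptase UMIs went with the label in the protease-rich members, and the protease-poor ones are called by their rule alone. They are kept in the values for all 71 members, and counts without them are given for lists where they change the picture.

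At the edge of the rule, 12 members had exactly 2 Cpa3 UMIs, of which 7 were protease-poor. Just outside it, 67 barcodes with 1 Cpa3 UMI met every other criterion, and 2 of these were protease-rich. A second-gene UMI was no strict demand, since 25.0% of all other passing barcodes held at least 1 UMI over Kit, Mcpt1, Mcpt2, Cma1 and Mcpt4. Mcpt1 alone was seen in 60 of 63 protease-rich members (95.2% at a median of 2477 UMIs) and in 183 of 1414 barcodes of the B cell class (12.9% at a median of 4225.5 UMIs), a class that should lack it. Fcer1a was seen in 93.7% of protease-rich members and 0.212% of B cell class barcodes, and thinned to 1000 UMIs the expected shares were 82.0% in protease-rich members and 0.0212% in the B cell class.

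The proteases that the rule read were abundant in members and are given as a description only. Mcpt1 and Mcpt2 together made up 18.9% of all UMIs of the protease-rich members, and 0.0340% of those of the barcodes that were no members. Levels below are in CPM, the UMIs of a gene over all UMIs of the set, both summed over its barcodes. Mcpt1 stood at 77033 CPM in all 71 members and 176 CPM in the other barcodes, and Mcpt2 at 64582 CPM in members and 164 CPM in the others. Mcpt4 reached 5988 CPM, Cma1 5651 CPM, the mast cell carboxypeptidase Cpa3 5683 CPM and Kit 680 CPM in members, against 4.40, 20.4, 16.2 and 17.6 CPM in the others. Cpa3 was not particular to members, since 40 of the 47 Mcpt8 barcodes with under 1% of UMIs in the second genes held it. Kit, itself a second gene, was seen in 0 of these 47. The genes Mcpt1 (chr14:56017971-56020384), Mcpt2 (chr14:56042041-56044642), Mcpt4 (chr14:56059629-56062313) and Cma1 (chr14:55941451-55944675) lie in 1 cluster on chromosome 14 (GENCODE vM21, GRCm38). Their longest annotated transcripts are related, with 82.2% identity between Mcpt1 and Mcpt2 and 85.6% between Mcpt1 and Mcpt4, so some exchange of reads between them cannot be told from the counts.

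Protease mixture varied among the 63 protease-rich members. Mcpt1 ranged from 0 to 1261 UMIs per barcode (median 261), Mcpt2 from 1 to 1319 (median 190), Mcpt4 from 0 to 113 (median 17) and Cma1 from 0 to 199 (median 11). The mucosal pair Mcpt1 and Mcpt2 took a median of 88.8% of the UMIs of 6 proteases (the others being Mcpt4, Cma1, Tpsb2 and Tpsab1), and at least 75% in 50 members. In 3 members it took under 50%: 40.8% in a barcode of 582 UMIs, 0.676% in one of 981 UMIs and 1.61% in one of 1270 UMIs. The barcode of 981 UMIs held 67 Mcpt4, 53 Cma1 and 27 Tpsb2 UMIs beside 1 Mcpt2 UMI, and that of 1270 UMIs held 74 Cma1 and 34 Mcpt4 UMIs beside 2 Mcpt2 UMIs, so the genes named above for connective tissue mast cells outnumbered the mucosal pair there. Mcpt1 exceeded Mcpt2 in 38 of the 63, namely in 18 of 22 in library 3, in 19 of 39 in library 4 and in 1 of the other 2.

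**Figure D2:**
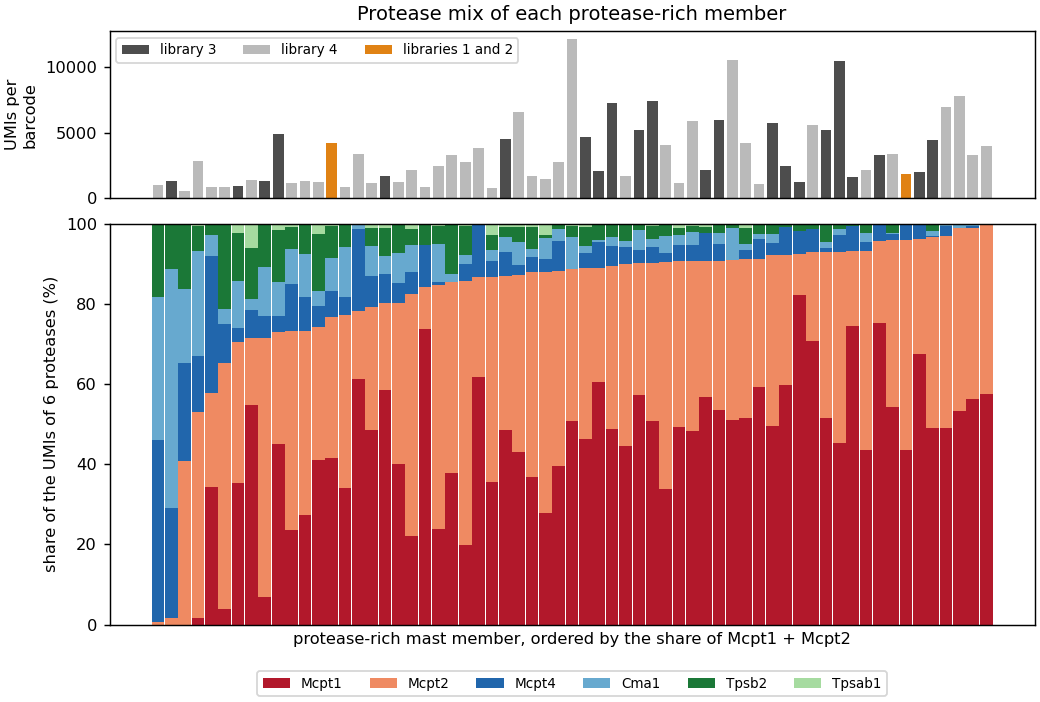
Lower panel: for each of the 63 protease-rich members (bars), the share of Mcpt1, Mcpt2, Mcpt4, Cma1, Tpsb2 and Tpsab1 in their summed UMIs, in percent, ordered by Mcpt1 plus Mcpt2; upper panel: UMIs of the same barcode, coloured by library. Mcpt1 and Mcpt2 fill most bars (median 88.8%), the 3 bars at the left fall under 50%, and the Mcpt1 to Mcpt2 balance shifts from barcode to barcode.

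Protease levels of the protease-rich members were of the same order in libraries 3 and 4. Mcpt1 stood at 114910 CPM in library 3 and 93239 CPM in library 4, and Mcpt2 at 86039 CPM in library 3 and 84427 CPM in library 4. Mcpt4 stood at 9300 CPM in library 3 and 6704 CPM in library 4, Tpsb2 at 6590 and 4839 CPM in the same order, and Cpa3 at 5258 CPM in library 3 and 9153 CPM in library 4. The single member of library 1 held 354 Mcpt1, 299 Mcpt2 and 56 Mcpt4 UMIs among 4211 UMIs, and that of library 2 held 347 Mcpt1, 416 Mcpt2 and 32 Mcpt4 UMIs among 1813 UMIs. Wider gaps were seen for some inducible genes. Cxcl2, a neutrophil chemokine, stood at 58.4 CPM in library 3 and 1174 CPM in library 4, and Jun at 339 and 1166 CPM in the same order. Of the 146 Cxcl2 UMIs of all protease-rich members, 136 came from 9 barcodes. The libraries cannot be tied to groups, so these gaps are given without a comparison of conditions.

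Against all other passing barcodes, genes of the IgE receptor, granule tryptases and serotonin handling were many-fold higher in members. A gene was tested when its UMIs in members plus those expected there from the other barcodes reached 10. It was called higher at a CPM ratio of at least 4 with UMIs in at least 5 members, and lower at a ratio of at most 1 in 4. Of 5777 genes tested outside the rule, 157 were higher (2.72%) and 320 were lower (5.54%), with a median log2 ratio of -0.15 over all of them. The 8 rule genes took 16.0% of member UMIs, and leaving them out of the totals added 0.25 to every log2 ratio, which made 201 of the same genes higher and 249 lower. Without the 8 protease-poor members, 185 of 4634 were higher (3.99%) and 597 lower (12.9%). Ratios carry the exact 95% interval for counts, which leaves out the spread between cells and between libraries.

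Of 12 other mast cell markers, 11 were tested and 9 were called higher, with a median log2 ratio of 7.16. Fcer1a stood at 1339 CPM in members and 4.96 CPM in the others, a log2 ratio of 8.08 (7.89 to 8.26), and Ms4a2 at 709 CPM in members and 3.10 CPM in the others, 7.84 (7.58 to 8.09). Fcer1g, the receptor's γ chain shared with other Fc receptors, was at 2342 CPM in members and 1351 CPM in the others, short of the call. Il1rl1 (ST2, the receptor for the alarmin IL-33) was at 503 CPM in members and 10.7 CPM in the others, and Gata2, a transcription factor of mast cells and basophils, at 439 and 6.09 CPM in the same order. Markers that missed the call were Hdc, at 507 CPM in members and 238 CPM in the others, and Hpgds, the haematopoietic prostaglandin D synthase, at 106 CPM in members and 37.4 CPM in the others.

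**Figure D3:**
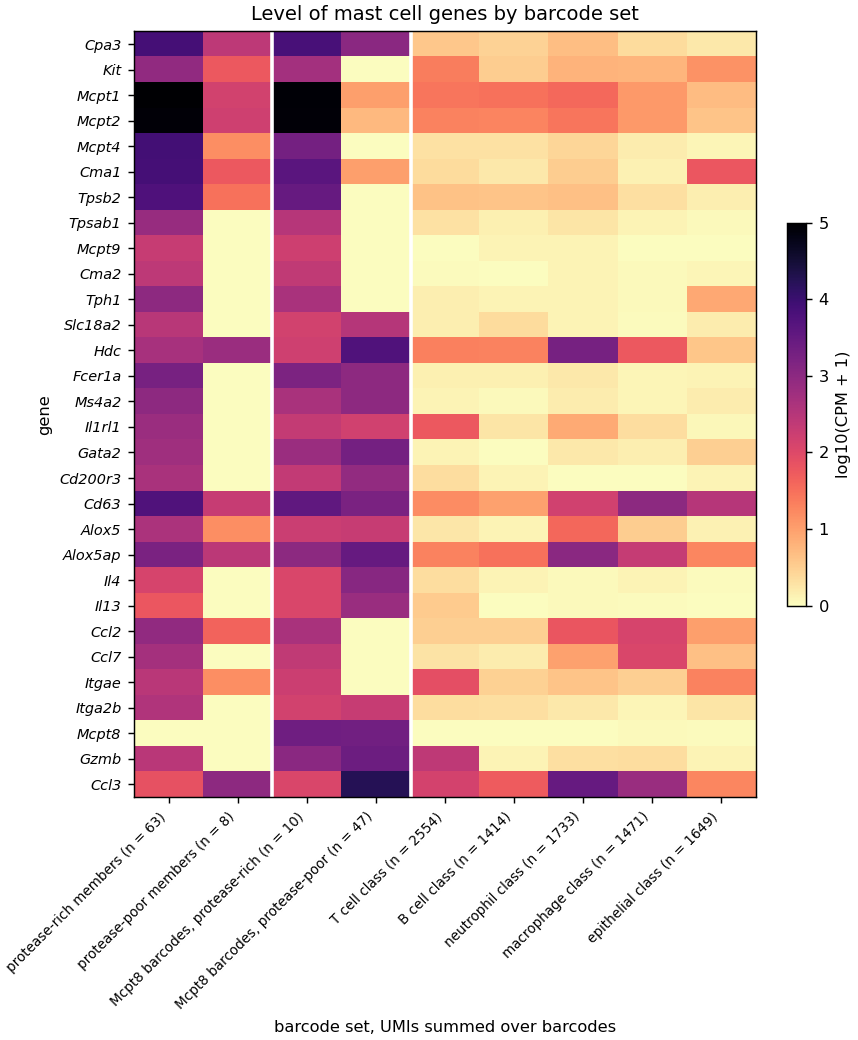
Colour gives log10(CPM + 1) of each gene (rows) in each barcode set (columns), from UMIs summed over the barcodes. Protease and receptor genes are dark in the 63 protease-rich members and paler in the 8 protease-poor ones and in the 5 other classes, while Fcer1a, Ms4a2, Gata2 and Cd200r3 are also dark in Mcpt8 barcodes.

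Promoters of 4 of these genes are shown, Cpa3 because it anchors the rule and Fcer1a, Ms4a2 and Il1rl1 as examples of markers high without being read by it. Other markers, among them Gata2, were also high without being read by the rule and are not shown. Each is the RefSeq window (GRCm38.p6) from 250 bases before to 50 after the annotated start, 5′ to 3′ on the strand of the gene, with GATA motifs in capitals. The motifs searched on both strands were AGATAA with its reverse complement TTATCT, then AGATAG with its reverse complement CTATCT, then TGATAA with its reverse complement TTATCA, and lastly TGATAG with its reverse complement CTATCA. The windows are Cpa3 (chr3:20242132-20242431, minus strand), Fcer1a (chr1:173227180-173227479, minus strand), Ms4a2 (chr19:11623670-11623969, minus strand) and Il1rl1 (chr1:40429320-40429619, plus strand).
Cpa3: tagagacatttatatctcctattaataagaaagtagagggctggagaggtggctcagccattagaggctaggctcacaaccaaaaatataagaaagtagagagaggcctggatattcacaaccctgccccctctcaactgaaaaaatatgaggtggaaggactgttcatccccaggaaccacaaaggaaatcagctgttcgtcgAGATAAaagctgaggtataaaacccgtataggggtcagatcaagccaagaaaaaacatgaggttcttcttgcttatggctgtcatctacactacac
Fcer1a: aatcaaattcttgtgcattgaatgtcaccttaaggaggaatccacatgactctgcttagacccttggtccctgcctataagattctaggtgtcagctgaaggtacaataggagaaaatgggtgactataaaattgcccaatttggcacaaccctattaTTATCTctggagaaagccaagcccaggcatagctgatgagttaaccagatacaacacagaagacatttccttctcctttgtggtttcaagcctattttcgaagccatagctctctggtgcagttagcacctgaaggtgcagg
Ms4a2: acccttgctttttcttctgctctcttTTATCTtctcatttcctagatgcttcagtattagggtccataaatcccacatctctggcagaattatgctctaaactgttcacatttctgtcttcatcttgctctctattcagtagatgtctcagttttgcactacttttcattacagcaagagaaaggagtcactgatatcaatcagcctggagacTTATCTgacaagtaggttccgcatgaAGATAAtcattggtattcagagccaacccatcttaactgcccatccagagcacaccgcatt
Il1rl1: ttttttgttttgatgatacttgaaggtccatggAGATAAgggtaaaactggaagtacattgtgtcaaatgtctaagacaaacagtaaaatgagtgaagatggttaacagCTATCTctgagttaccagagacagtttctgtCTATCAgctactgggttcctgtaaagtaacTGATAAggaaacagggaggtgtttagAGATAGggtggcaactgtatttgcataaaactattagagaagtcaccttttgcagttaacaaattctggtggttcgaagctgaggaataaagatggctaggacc
A motif began 46 bases before the start in Cpa3, 92 bases before it in Fcer1a, and 224, 37 and 11 bases before it in Ms4a2, and the Il1rl1 window held 5. Motifs were searched in Cpa3, Kit, Mcpt1, Mcpt2, Cma1, Mcpt4 and the other mast cell markers, 18 genes in all. Of these 14 matched a window, while Mcpt2, Tpsb2, Tpsab1 and Rab27b did not. Taking the first window listed for each gene, 11 of the 14 held at least 1 motif. Of all 32851 windows, which were not reduced to 1 per gene, 9778 did (29.8%). At least 3 motifs were found in 2 of the 14, Ms4a2 and Il1rl1, against 1.76% of all windows. The windows of Gata2, Kit and Hpgds held 0 motifs. A match describes letters in the window and is no evidence that a GATA factor binds there.

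Granule proteases outside the rule were led by tryptases. Of 11 listed, 9 were tested and 5 were higher, while 0 were lower. Tpsb2 (mast cell tryptase β) stood at 4305 CPM in members and 6.41 CPM in the others, a log2 ratio of 9.39 (9.26 to 9.52), and Tpsab1 at 546 CPM in members and 0.907 CPM in the others, 9.23 (8.87 to 9.60). Among chymase relatives, Mcpt9 reached 149 CPM in members and 0.519 CPM in the others. Gzmb (granzyme B, a cytotoxic granule protease) stood at 213 CPM in members and 45.3 CPM in the others, with 250 CPM in the T cell class.

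Genes for amine synthesis were higher for serotonin more than for histamine. Of 14 listed genes for amines and proteoglycan, 10 were tested and 5 were higher. Tph1, which makes serotonin's precursor from tryptophan, stood at 716 CPM in members and 2.64 CPM in the others, a log2 ratio of 8.08 (7.82 to 8.34), and was seen in 46 of the 63 protease-rich members. Slc18a2, the transporter that loads amines into granules, was at 220 CPM in members and 1.53 CPM in the others, and Ddc, the next enzyme towards serotonin, at 74.4 and 5.68 CPM in the same order. The heparin enzyme Ndst2 was at 39.0 CPM in members and 7.44 CPM in the others. Srgn, the proteoglycan core, was at 3618 CPM in members and 2650 CPM in the others and missed the call. Hdc, which makes histamine, was seen in 20 of 63 protease-rich members, and stood at 458 CPM in protease-rich members and 1847 CPM in the neutrophil class.

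Release and lipid mediator genes were higher for a minority of their lists. Of 14 degranulation genes, 13 were tested and 3 were higher: Cd63, a granule membrane tetraspanin, at 4089 CPM in members and 382 CPM in the others, Rab27b at 113 CPM in members and 6.35 CPM in the others, and Stx3 at 74.4 CPM in members and 15.6 CPM in the others. In the eicosanoid list 2 of 9 tested genes were higher and 1 was lower. Alox5, which starts leukotriene synthesis, was at 326 CPM in members and 5.26 CPM in the others, and its partner Alox5ap at 1318 and 248 CPM in the same order. Ptgs2 (COX-2) was lower, at 120 CPM in members and 647 CPM in the others.

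Of 20 genes for the IgE receptor and its signalling, 18 were tested, 4 were higher and 1 was lower. Beside both receptor chains these were the adaptors Lat2, at 485 CPM in members and 49.3 CPM in the others, and Lat, at 223 CPM in members and 54.9 CPM in the others. Lat lay close to the limit, at a log2 ratio of 2.02. It fell short in several settings, among them without library 2, at 1.81, and with barcodes weighted equally, at 1.34. Fcgr2b, the inhibitory IgG receptor, was lower at 46.1 CPM in members and 209 CPM in the others. Without the 8 protease-poor members Btk was also higher and the kinase Syk lower. Of 13 tested genes of KIT signalling and survival, 0 were higher and 1, the survival gene Bcl2l1, was lower, at a log2 ratio of -2.06. In protease-rich members alone 0 of 10 tested were higher and 3 lower, namely Bcl2l11, Cbl and Bcl2a1b, while Bcl2l1 was not tested there. With the rule genes left out of the totals and all 71 members kept, both Fcgr2b and Bcl2l1 fell short of the limit.

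**Figure D4:**
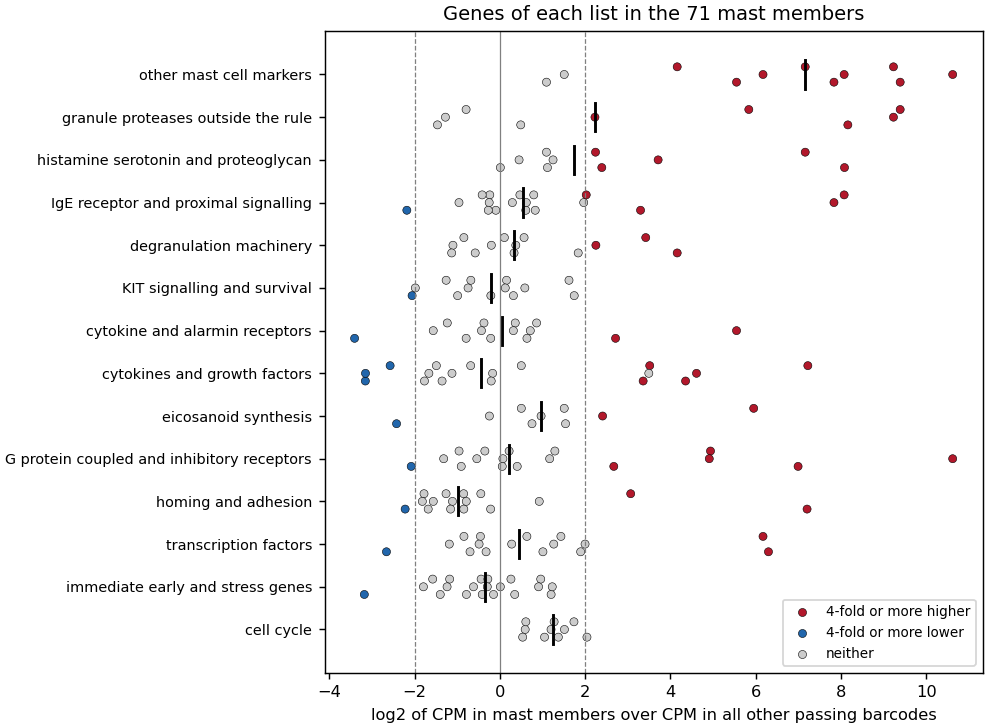
Points are genes, grouped by list (rows); the horizontal axis is the log2 ratio of CPM in the 71 members over all other passing barcodes, with dashed lines at a 4-fold ratio and a black bar at the median of each list. Red genes were called higher and blue ones lower; grey points right of the dashed line had UMIs in fewer than 5 members, as did Csf2 at 3.49, whose 22 UMIs came from 1 barcode. The other mast cell markers have the largest median, 7.16, of the lists drawn.

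Cytokine genes split in both directions. Of 25 listed, 18 were tested, 5 were higher and 3 were lower. Il4, seen in 15 members, stood at 92.1 CPM in members and 3.77 CPM in the others, and Il13, seen in 6, at 46.1 and 2.25 CPM in the same order; both drive type 2 responses. Ccl2, a monocyte chemokine, was at 652 CPM in members and 63.5 CPM in the others. Ccl7 was at 376 CPM in members and 32.9 CPM in the others, but its 106 UMIs came from 9 members, 57 of them from 1 barcode. Angpt1, a ligand of the endothelial receptor TIE2, was at 56.7 CPM in members, against 0.379 CPM in the others. Il1a, Ccl9 and Vegfa were lower, Il1a at 74.4 CPM in members and 444 CPM in the others. Without the 8 protease-poor members the balance turned, with 5 of 17 tested genes higher and 7 lower. Il1b, Cxcl2, Ccl3 and Ltb then joined the lower genes, Il1b at 222 CPM in protease-rich members and 6448 CPM in the others.

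Surface receptors higher in members included Csf2rb2, a β chain used by the IL-3 receptor in mice, at 276 CPM against 42.2 CPM in the others. The inhibitory CD200 receptor family members Cd200r3 and Cd200r4 stood at 326 and 188 CPM in members, against 2.56 and 6.24 CPM in the others. Adora3, an adenosine receptor, was at 99.2 CPM in members and 3.23 CPM in the others, and the ATP-gated channel P2rx7 at 142 CPM in members and 22.3 CPM in the others. Mrgprb2, a receptor known from connective tissue mast cells, had 11 UMIs in 7 members and 3 UMIs in the 14127 other barcodes. Among homing genes, Itgae (CD103, the α chain that pairs with β7 to bind epithelial E-cadherin) was at 216 CPM in members and 25.8 CPM in the others, and the integrin chain Itga2b at 280 and 1.90 CPM in the same order. Of 16 homing genes tested, 2 were higher and 1 was lower, and without the protease-poor members 2 of 14 were higher and 7 lower, among them the chemokine receptors Ccr1, Ccr2 and Cxcr4.

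Transcription factor genes higher in members were Gata2 and Tal1, 2 of 16 tested, with Tal1 at 39.0 CPM in members and 0.495 CPM in the others. Mitf, a known regulator of mast cells, was at 53.1 CPM in members and 13.3 CPM in the others, a log2 ratio of 2.00 that fell short of the call and passed it without the protease-poor members, at 2.21. Irf8 was lower, at 31.9 CPM in members and 202 CPM in the others. Of 20 immediate early and stress genes, 0 were higher and 1, Atf3, was lower, at 42.5 CPM in members and 386 CPM in the others; without the protease-poor members 7 were lower.

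Egfr is the gene deleted in the study, and the EGFR family was scarcely measured in members. Egfr, Erbb2, Erbb3 and Erbb4 had 0 UMIs, which allows up to 10.6 CPM for each, whereas the other barcodes held 3.19 CPM of Egfr, so a level like theirs was not detectable at this depth. Areg, the ligand amphiregulin, had 14 UMIs in members, of which 12 came from 1 protease-poor barcode, a level of 49.6 CPM against 141 CPM in the others. In the 63 protease-rich members Areg had 2 UMIs.

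Beyond the lists, the genes with the highest ratios, each with at least 20 UMIs in at least 10% of members, were led by Speer4e. It had 23 UMIs in 10 members and 3 UMIs in all others, a log2 ratio of 11.69 (9.96 to 14.06). Adgra1, an adhesion G protein coupled receptor, followed at 9.97 (8.78 to 11.28), with 74.4 CPM in members and 0.0742 CPM in the others. Atp8b5, a phospholipid flippase gene, stood at 259 CPM in members and 0.536 CPM in the others, 8.91 on the log2 scale. Cma2, a chymase gene beside Cma1, was at 195 CPM in members and 0.478 CPM in the others, in 11 members, and Hs6st2, a heparan sulphate 6-O-sulphotransferase, at 106 and 0.322 CPM in the same order.

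Markers of several other lineages were lower in members, for some lists mainly or only without the protease-poor ones. All 5 tested B cell markers were lower, with Cd79a at 3.54 CPM in members and 228 CPM in the others. Of 5 plasma cell markers 4 were lower, although Jchain, the joining chain of secreted IgA, still left 45 UMIs in 31 members, 159 CPM against 8341 CPM in the others. Of T cell markers 1 of 6 tested was lower, of innate lymphoid markers 2 of 5, of epithelial markers 3 of 4 and of erythroid markers 4 of 4, and no marker of any of these lists was higher. Without the protease-poor members, 5 of 5 tested T cell markers and 4 of 4 innate lymphoid markers were lower. The goblet cell gene Spink4 was at 7.09 CPM in members and 881 CPM in the others. Neutrophil and macrophage markers passed no call in either direction over all 71 members, but without the 8 protease-poor ones 5 of 5 tested neutrophil markers and 7 of 7 macrophage markers were lower. Ptprc (CD45) was seen in 31 of 71 members and in 23 of the 63 protease-rich ones, at 180 CPM in the protease-rich ones against 680 CPM in the barcodes that were no members.

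The second comparison set members beside barcodes with at least 2 UMIs of Mcpt8, a protease known from basophils, the circulating relatives of mast cells. Of 57 such barcodes, 47 were protease-poor, with at most 0.0367% of their UMIs in the second genes, and 10 were protease-rich, with 6.03 to 33.6%. Libraries 1 to 4 held 18, 21, 5 and 3 of the 47, which is 3.03% of passing barcodes in library 1 and 0.0406% in library 4, the reverse of the members' spread over libraries. Members over all 57 gave 141 of 5451 genes higher (2.59%) and 252 lower (4.62%). Neutrophil and antigen presentation genes led that list. S100a8 stood at 3086 CPM in members and 20.4 CPM in Mcpt8 barcodes, and Lyz2 and H2-Ab1 followed at log2 ratios of 5.14 and 4.59, and the 8 protease-poor members held 221 of the 229 Lyz2 UMIs. The comparison was therefore repeated between the 63 protease-rich members and the 47 protease-poor Mcpt8 barcodes, a choice made after seeing these values, and there 300 of 4260 genes were higher (7.04%) and 598 lower (14%). Leaving the rule genes out of the totals added 0.34 to those log2 ratios, which made 444 higher and 452 lower.

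Both sets shared the IgE receptor. Ms4a2 was at 945 CPM in protease-rich members and 942 CPM in protease-poor Mcpt8 barcodes, a log2 ratio of 0.00 (-0.28 to 0.29), and Fcer1a at 1786 and 942 CPM in the same order, 0.92 (0.68 to 1.17). Slc18a2 was at 293 CPM in protease-rich members and 322 CPM in protease-poor Mcpt8 barcodes, a log2 ratio of -0.13 whose sign turned with the rule genes left out of the totals. Gata2 was at 586 CPM in protease-rich members and 1929 CPM in protease-poor Mcpt8 barcodes, and Cd200r3 at 435 and 817 CPM in the same order. None of these 5 genes passed the 4-fold call. Basophil markers overlapped with those of mast cells: of 8 tested, 6 were higher in all 71 members than in all other barcodes, while 5 of 10 tested were lower in protease-rich members than in Mcpt8 barcodes.

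Over all 71 members and all 57 Mcpt8 barcodes, Tpsab1 was called higher and Tpsb2 was not. Tryptases and serotonin synthesis were higher in the protease-rich members than in the protease-poor Mcpt8 barcodes, sets divided by their protease share. Of 9 tested granule proteases outside the rule, 4 were higher (Mcpt9, Tpsab1, Tpsb2 and Tpsg1) and 3 lower (Ctsg, Gzmb and Prss34). Tpsb2 had 1213 UMIs in them and 0 in the 47 Mcpt8 barcodes, a log2 ratio of at least 8.74 with the zero put at 3 counts over the set. On the same footing Tph1, at 954 CPM in protease-rich members, gave at least 6.15, Tpsab1 at least 5.76 and Ccl2 at least 6.00. Ctla2a, which encodes a protein related to cathepsin propeptides, had 279 UMIs in protease-rich members and 0 in Mcpt8 barcodes. Rgs10, a regulator of G protein signalling, was at 732 CPM in protease-rich members and 4.47 CPM (1 UMI) in Mcpt8 barcodes, a log2 ratio of 7.36 (4.86 to 12.67). Il1rl1 was at 671 CPM in protease-rich members and 147 CPM in Mcpt8 barcodes, and Itgae at 283 CPM in protease-rich members with 0 UMIs in Mcpt8 barcodes.

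Histamine synthesis and cytokines pointed the other way. Hdc was at 458 CPM in protease-rich members and 5484 CPM in protease-poor Mcpt8 barcodes, a log2 ratio of -3.58 (-3.89 to -3.28), and was seen in 20 of 63 protease-rich members and in 47 of 47 Mcpt8 barcodes. Thinned to 1000 UMIs, with 8 shallower protease-rich members left out, the expected share was 21.3% in protease-rich members and 92.9% in Mcpt8 barcodes. Of 16 tested cytokine genes 12 were lower, among them Il4 at 123 CPM in protease-rich members and 1125 CPM in Mcpt8 barcodes, Il13 at 61.4 and 688 CPM, and Il6 at 66.1 and 1835 CPM, both in the same order. The chemokine Ccl3 was at 70.9 CPM in protease-rich members and 17332 CPM in Mcpt8 barcodes, Ccl6 at 23.6 and 9427 CPM, and Ccl9 at 4.72 and 4095 CPM. Csf1, the macrophage growth factor, was at 23.6 CPM in protease-rich members and 2063 CPM in Mcpt8 barcodes. The basophil tryptase gene Prss34 was at 14.2 CPM in protease-rich members and 424 CPM in Mcpt8 barcodes.

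Since the 2 sets came mostly from different libraries, the same ratios were taken within libraries 3 and 4, where 61 protease-rich members stood beside 8 protease-poor Mcpt8 barcodes of 43029 UMIs. There 120 of 4099 genes were higher (2.93%) and 790 lower (19.3%). With so few UMIs on the Mcpt8 side, a count of 0 put at 3 counts keeps genes of low level from being called higher. A lower call asked for no minimum of barcodes, so it could rest on a few Mcpt8 UMIs, even of a single barcode. How many of the 790 did so was not counted. Hdc stood at -3.50 (-3.85 to -3.15), close to its value over all libraries. Il4 stood at -4.19 in place of -3.20 and Il6 at -3.73 in place of -4.79, while Ccl3 at -7.14 and Csf1 at -6.56 also stayed past the limit, and Tpsb2 and Tph1 remained at 0 UMIs in those 8 barcodes. Cytokine genes stayed lower for 11 of 16 tested. Other mast cell markers were higher for 2 of 11, against 5 of 11 over all libraries, and Il1rl1 lost its call at 1.39 (0.51 to 2.43) in place of 2.19. Gzmb passed the call over all libraries at -3.11 and missed it within libraries 3 and 4 at -0.81 (-1.54 to -0.03). Immediate early and stress genes were lower for 14 of 19 over all libraries and for 8 of 19 within these libraries, where Jun stood at 0.82 (0.15 to 1.57) in place of -1.59 and Fos at -0.54 in place of -2.22. Tnf had 94 UMIs in the 47 Mcpt8 barcodes and 0 in the 8 of libraries 3 and 4, so its call of -2.23 did not hold there.

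**Figure D5:**
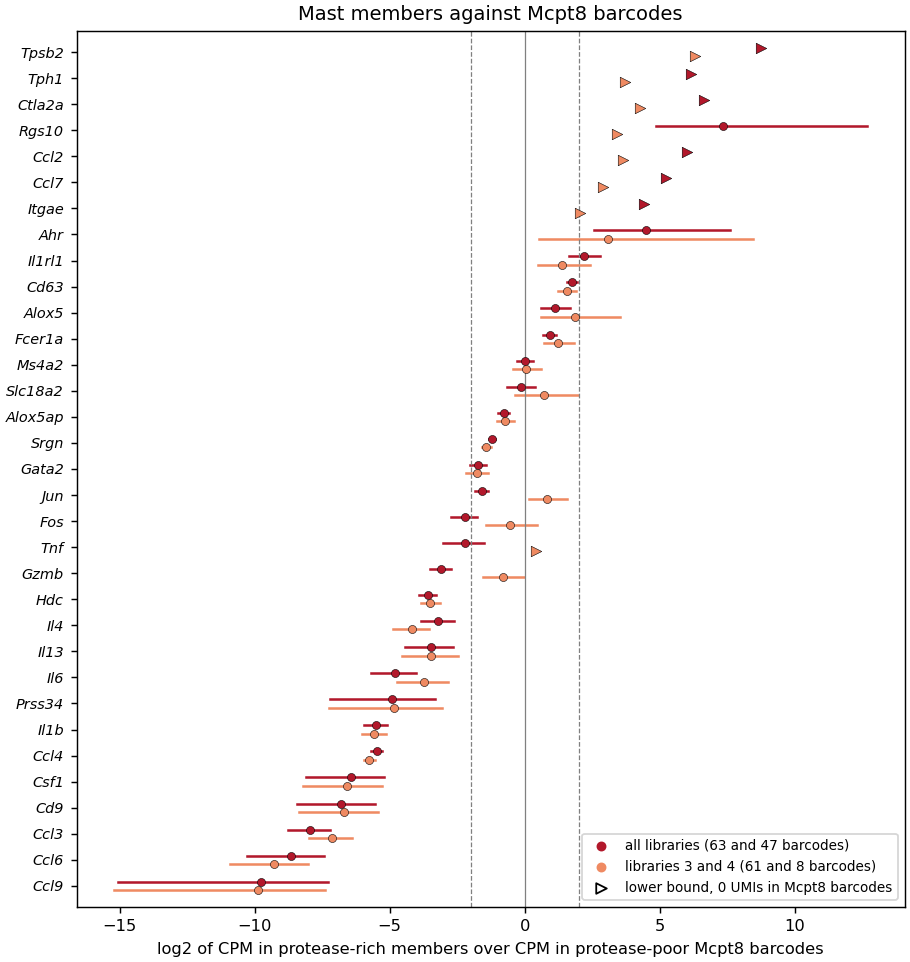
Log2 ratios of CPM in protease-rich members over protease-poor Mcpt8 barcodes for 33 genes (rows), over all libraries and within libraries 3 and 4; lines are 95% counting intervals and arrowheads are lower bounds where Mcpt8 barcodes held 0 UMIs. Tpsb2, Tph1, Ccl2 and Ccl7 ratios lie at the right, IgE receptor genes near 0, and Hdc, Il4, Ccl3, Ccl4 and Ccl9 at the left in both. Jun, Fos, Tnf and Gzmb move toward or past 0 within libraries 3 and 4.

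The 10 protease-rich Mcpt8 barcodes, were kept out of the members by their Mcpt8 UMIs and chosen here by the same protease share as the protease-rich members. Their Mcpt8 ranged from 2 to 142 UMIs, Prss34 was at 0 UMIs in each of them, and 9 of them lay in libraries 3 and 4. They were deeper, with a median of 10170 UMIs against 2477 UMIs in protease-rich members. Of 3463 genes tested between these sets, 58 were higher (1.67%) and 62 lower (1.79%) in the protease-rich Mcpt8 barcodes. Many of these calls rested on 1 barcode of 42343 UMIs, without which 18 were higher and 45 lower. The replication genes Mcm7 and Dut passed the call with that barcode, at log2 ratios of 2.58 and 2.12, and missed it without, at 1.86 and 1.76. It held 166 of the 267 cell cycle UMIs of the 10. Cxcl2 was lower with and without it, at 17.9 CPM in all 10 against 690 CPM in protease-rich members, where 136 of its 146 UMIs came from 9 barcodes. No doublet caller was run, and whether some of the 10 protease-rich Mcpt8 barcodes held more than 1 cell was not tested.

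Within the protease-rich members, 37 had at least 2000 UMIs, and 7 of these had at most 2 Mcpt4 UMIs although they held 28 to 131 Cpa3 UMIs. This division was made on Mcpt4 after seeing the data and is a description. The 7 Mcpt4-low members and the 30 others had similar levels of Mcpt1, at 106435 CPM and 109356 CPM. Tpsb2 was at 2644 CPM in Mcpt4-low members and 6457 CPM in the others of that depth, and Rgs1 at 2578 and 611 CPM in the same order. Unlike Tpsb2, Cma1 was higher in summed UMIs, at 8770 CPM in Mcpt4-low members and 6733 CPM in the others. Its median per barcode was lower, at 12.1 UMIs per 10000 in Mcpt4-low members and 51.2 in the others. Of the other tryptases, Tpsab1 was at 353 and 804 CPM and Tpsg1 at 309 and 223 CPM in the same order. Itgae was at 595 CPM in Mcpt4-low members and 216 CPM in the others, and Ccl2 at 110 and 633 CPM in the same order. Of the 7, 6 lay in library 4. Within library 4 Itgae stood at 586 CPM in the 6 Mcpt4-low members and 238 CPM in 15 others, a log2 ratio of 1.30 (0.29 to 2.36), and Rgs1 at 2221 and 1070 CPM in the same order, 1.05 in place of 2.08.

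Few members held many cell cycle UMIs. Of the 63 protease-rich members, 3 held at least 10 UMIs over the cell cycle list, with 29, 43 and 56 UMIs. These barcodes had 3795, 10453 and 12107 UMIs in all, against a median of 2477 UMIs in protease-rich members. A fixed count is harder to reach at low depth, and no such share is given for the other barcodes. Mki67 and Top2a, markers of cycling cells, had 16 and 21 UMIs in protease-rich members. A single protease-poor barcode with T cell RNA held 156 of the 318 cell cycle UMIs of all 71 members.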

How the data were processed

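Polyp cells sorted on CD45 and EPCAM were captured with 10x 3' chemistry. Per the submitters' processing notes, the authors used Cell Ranger 3.0.2 and the mm10 genome; they deposited 1 matrix of raw UMI counts, 31053 genes by 18026 barcodes with 129529250 UMIs, which joins 4 libraries of 9246770 to 65481274 UMIs. Barcodes were filtered, members found by the rule, and UMIs summed over each set with Python 3.11.15 (scipy 1.17.1). Levels are CPM of the summed UMIs. Ratios carry exact conditional binomial intervals, levels Poisson ones and shares Clopper-Pearson ones, all at 95%, and a count of 0 was put at 3 counts over the set. The ratios and their intervals were checked on simulated Poisson counts, which hold no spread between cells or libraries, so the check covers counting error only.

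Cells are no replicates and the 4 libraries could not be matched to samples, so no test was made and no genotype or sort compared. Doublets were treated by the rule (Mcpt8 and Epcam at 0) alone, with no caller. Members and gene lists were chosen with earlier results of these data known. Genes outside the lists were named as the 15 highest and 10 lowest ratios of a comparison, of which some are printed. Alternatives changed the filters, the Cpa3 minimum, the low-count minimum, added CPM, the weighting, the comparison barcodes and the libraries.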

Additional observations from a re-analysis of the deposited data

How the results depend on the processing

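No paired analysis was possible because the result comes from 1 pooled matrix with no test and no replicate. The 71 members numbered 138 with a Cpa3 minimum of 1 UMI, and leaving out 1 library at a time gave 25 to 70, the lowest without library 4. Genes higher in members than in all other barcodes, 157, numbered 94 with Cpa3 at least 1, 95 with a low-count minimum of 20, 99 with 10 CPM added, and 84 to 167 with 1 library left out, the lowest without library 4. Genes lower there, 320, numbered 584 with Cpa3 at least 5, 559 without members that met another class rule, 516 with no low-count minimum, 163 with a minimum of 20, 201 with 10 CPM added, 735 with barcodes weighted equally, 597 without protease-poor members, and 217 to 302 with 1 library left out. Genes higher in members than in Mcpt8 barcodes, 141, numbered 665 with Cpa3 at least 1, 78 with Cpa3 at least 5, 91 without members that met another class rule, 232 with no low-count minimum, 65 with a minimum of 20, 69 with 10 CPM added, 329 with barcodes weighted equally, 83 with Mcpt8 at least 1, 88 without protease-poor members, 361 without protease-rich Mcpt8 barcodes, 300 without both, and 57 to 149 with 1 library left out, the lowest without library 4. Genes lower there, 252, numbered 396 with no low-count minimum, 166 with a minimum of 20, 161 with 10 CPM added, 552 with barcodes weighted equally, 496 without protease-rich Mcpt8 barcodes, 598 without both sets, 790 without both in libraries 3 and 4 alone, and 191 to 278 with 1 library left out. Of 43 named genes past 4-fold against all other barcodes, 659 of 688 values over the alternatives followed kept the direction and the limit. Of 18 against Mcpt8 barcodes 301 of 324 did. Named genes were not followed with 10 CPM added, with no low-count minimum or with a minimum of 20, so these values leave those settings out. The sign turned for Il7r (0.75) and Irf8 (0.0726) with Cpa3 at least 1 and for Chst15 without library 4 (-0.0724, and up to 3.07 with another library left out). Against Mcpt8 barcodes it turned for H2-Ab1 (-0.52) with Cpa3 at least 5, for Lyz2 (-0.55) with Mcpt8 at least 1, and for Lyz2 (-0.26) and H2-Ab1 (-0.26) without both sets in libraries 3 and 4 alone. Their cause was not tested. Depth limits low genes, since 0 UMIs in the 71 members allows up to 10.6 CPM.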

Other observations

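A further 9 passing barcodes were protease-rich without being members or Mcpt8 barcodes, and they held 10303 of the 46421 UMIs of Kit, Mcpt1, Mcpt2, Cma1 and Mcpt4 found outside the members. Mcpt8 barcodes held 30246 of those UMIs. Receptor or protease genes seen in few members included Mrgprb2, whose 11 UMIs lay in 7 members, 10 of them in library 4 and 1 in library 3. Cma2 stood at 479 CPM in library 3 and 108 CPM in library 4 among protease-rich members, and Atp8b5 at 117 CPM in library 3 and 516 CPM in library 4.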
